A study of Mus musculus with 6 samples.

Results

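Molecular chaperones of the cytosol and the mitochondria, with the cochaperones that regulate them, were followed in mouse bone marrow-derived macrophages given β-elemene, a plant sesquiterpene, after co-culture with tumour cells. The group was a named list of 39 genes, all of which were found by symbol among the 21878 rows of the deposited count table. It held 2 heat shock factors, 10 members of the HSP70 and HSP110 families, 3 HSP90 genes, 6 J-domain (HSP40) genes, 1 small heat shock protein, the 2 genes of the mitochondrial chaperonin, 7 genes of the cytosolic chaperonin and 8 cochaperones. Of these 39 genes, 38 passed the filter on low counts and were tested, and Hspb1 did not.

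The β-elemene group received 100 µg/mL of the compound for 24 h and the PBS group an equal volume of phosphate-buffered saline, with 3 libraries each. All macrophages were grown from wild-type C57BL/6 marrow in 50 ng/mL of the growth factor M-CSF, and all had first shared medium for 48 h with mouse lung carcinoma cells (LLC) across a membrane with 0.4 µm pores. Macrophages without LLC co-culture were not analysed here, so every value below holds for conditioned macrophages, and the labels do not say whether replicates were separate cultures or animals, so p-values measure the spread between libraries, which may be technical. Levels are given as CPM, counts scaled to library size, after trimmed-mean (TMM) correction, as mean ± SD with n = 3 libraries per group, and fold changes are β-elemene over PBS on the log2 scale with their standard error (SE).

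The β-elemene libraries totalled 18916844 to 20550078 counts, against 20524959 to 20729887 for the PBS libraries, and 3 counts in a library equal 0.184 to 0.195 CPM with β-elemene, against 0.116 to 0.117 CPM with PBS. The labelled cell type fitted its markers. The 10 macrophage markers summed to 17493 to 18108 CPM with β-elemene, against 13463 to 14455 CPM with PBS. Under TMM scaling 8 of the 10 were higher and 2 lower with β-elemene, where 36.6% of all tested genes were higher and 40.2% lower. Of those called higher, Lyz2 (440737 counts in all with β-elemene, 523107 with PBS), Cd68, Tyrobp and Adgre1 had fewer unscaled counts with β-elemene. Fcgr1, Mertk, Cd14 and Aif1 had more. The 2 called lower were Csf1r, at 928 ± 66.1 CPM with β-elemene against 2671 ± 82.3 CPM with PBS, and Itgam. Their log2 fold changes were -1.53 and -0.26. The 6 epithelial carcinoma markers summed to at most 0.0615 CPM with β-elemene and 0.155 CPM with PBS, with Krt19 and Cldn4 at 0 counts throughout. Fibroblast markers summed to 1.69 to 3.87 CPM with β-elemene, against 13.2 to 17.2 CPM with PBS, with 3 of the 5 tested lower, and endothelial markers to 2.60 to 4.06 CPM with β-elemene, against 16.3 to 20.8 CPM with PBS, with 1 of the 2 tested higher and 1 lower. Neutrophil markers summed to 21.8 to 24.7 CPM with β-elemene, against 8.73 to 11.7 CPM with PBS, with 3 of 4 tested higher and 1 lower and Retnlg at 0 throughout, and the dendritic, T and NK, and B cell lists to at most 11, 0.429 and 1.90 CPM with β-elemene and 4.85, 0.117 and 4.45 CPM with PBS. The part of these markers in the chaperone values was not tested.

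Chaperones bind unfolded stretches of other proteins and release them in cycles of ATP hydrolysis. HSP70 proteins receive clients from J-domain proteins, reset with nucleotide exchange factors such as the HSP110 and BAG families, and can pass clients on to HSP90 through adaptor cochaperones, while barrel-shaped chaperonins enclose their clients. In stressed cells heat shock factor 1 binds heat shock elements in chaperone promoters, and in macrophages chaperones serve the heavy protein synthesis of activation as well as the folding of kinases and receptors that sense microbial products.

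With β-elemene chaperone genes moved in both directions. Under TMM scaling the inducible HSP70 genes Hspa1a and Hspa1b and the HSP110 gene Hspa4l rose by more than 2-fold. So did the cytosolic J-domain genes Dnaja1, Dnaja2 and Dnajb6 and the adaptor gene Stip1. Scaled by library size alone these rises were smaller, from 0.37 (Stip1) to 1.77 (Hspa1b) on the log2 scale. The HSP110 gene Hsph1 and the mitochondrial chaperonin gene Hspd1 fell to 23.7 ± 0.183 and 115 ± 9.13 CPM, against 73.8 ± 1.74 and 225 ± 12.2 CPM with PBS. Of 38 tested chaperone genes, 20 were higher, 13 lower and 5 did not pass (edgeR quasi-likelihood test, Benjamini-Hochberg adjusted p below 0.05 over all 11459 genes tested), where 36.6% of all tested genes were higher and 40.2% lower. A call in either direction was common, at 76.7% of all tested genes, so being called does not by itself set a chaperone gene apart. At a change of at least 1.5-fold, 10 were higher and 4 lower, where the background was 23.9% and 27.6%. Groups did not overlap for 34 of the 38, against 79.9% of all genes tested. The median log2 fold change was 0.20 for the chaperone genes and -0.06 for all genes tested.

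How many chaperone genes count as higher depends on how the libraries are scaled to each other. With upper quartile scaling 12 were higher and 17 lower (background 25.7% and 57%), and with library size alone 8 were higher and 27 lower (background 18.9% and 69.8%), and these scalings shift the median over all tested genes by -0.32 and -0.64 on the log2 scale. Under all 4 scalings tried, TMM, median of ratios, upper quartile and library size alone, 8 genes were called higher, namely Hspa1a, Hspa1b, Hspa4l, Hspa8, Dnaja1, Dnaja2, Dnajb6 and Stip1. Likewise 12 genes were called lower under all 4, namely Hsf1, Hspa2, Hspa4, Hspa9, Hspa14, Hsph1, Dnaja3, Hspd1, Hspe1, Bag3, Fkbp4 and Fkbp5. The call of the remaining 18 differed among the scalings, and 10 of them were higher under one scaling and lower under another. The share of all tested genes called alike under all 4 was not computed. It cannot exceed 18.9% for higher or 38.3% for lower, the lowest shares under any single scaling. Relative to the median of all genes, 25 of the 38 stood above and 13 below. Under TMM scaling 5729 of the 11459 genes tested stood above, as the definition of a median requires. The split was the same under each of the 4 scalings, and no gene's distance from that median moved by more than 0.00325 on the log2 scale. Because a change of scaling shifts all genes together by construction, this sameness had to hold and is no test of the split. In bulk RNA, a lower level per cell and fewer cells that carry a transcript cannot be told apart.

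**Figure D1:**
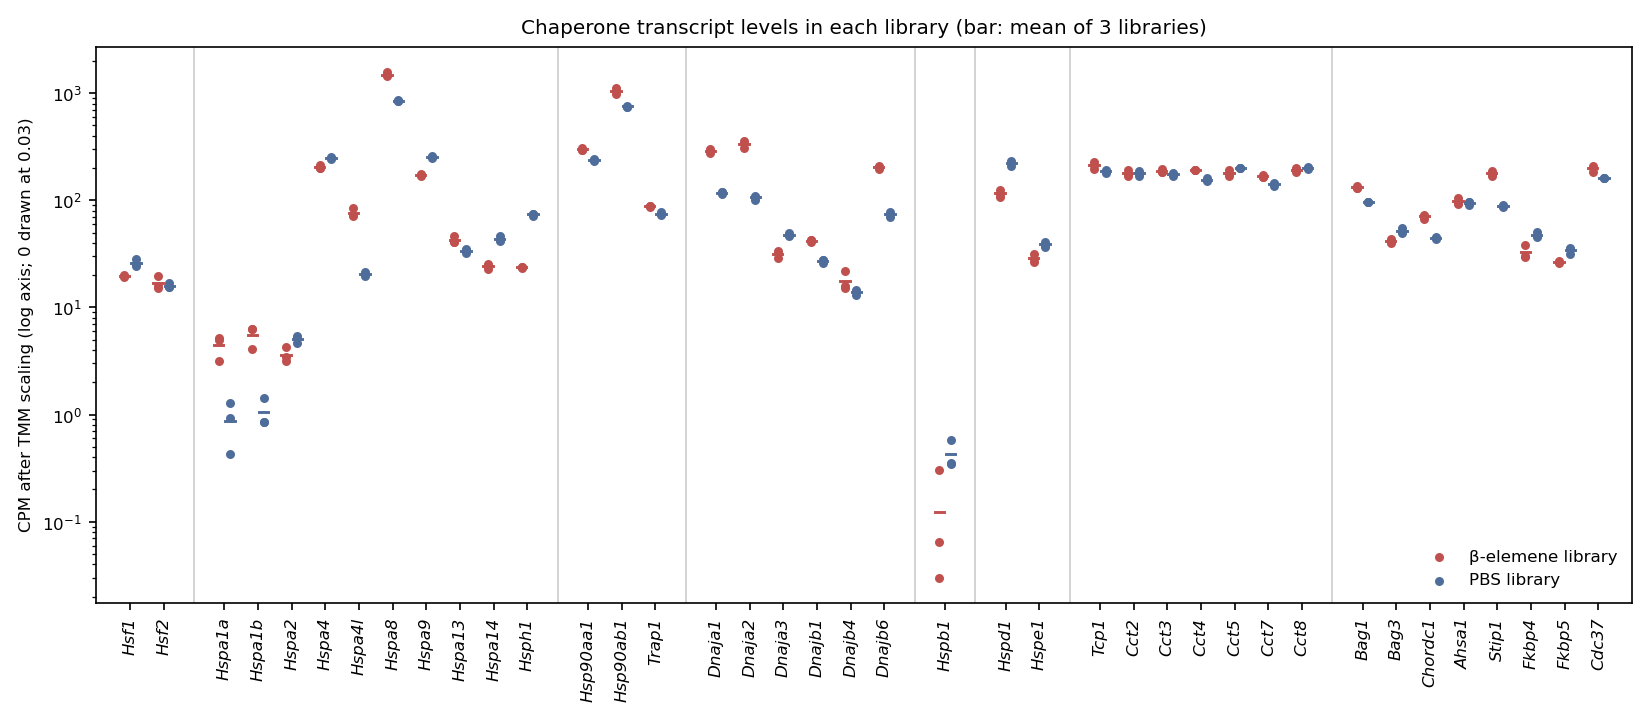
Level of each chaperone gene in each library in CPM after TMM scaling, on a log axis, grouped by family, with β-elemene left of PBS, a bar at the mean of 3 libraries and a count of 0 drawn at the foot of the axis. Hspa8 and Hsp90ab1 stand highest in both groups, and the Hspd1 libraries lie at 107 to 125 CPM with β-elemene, against 211 to 234 CPM with PBS.

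**Figure D2:**
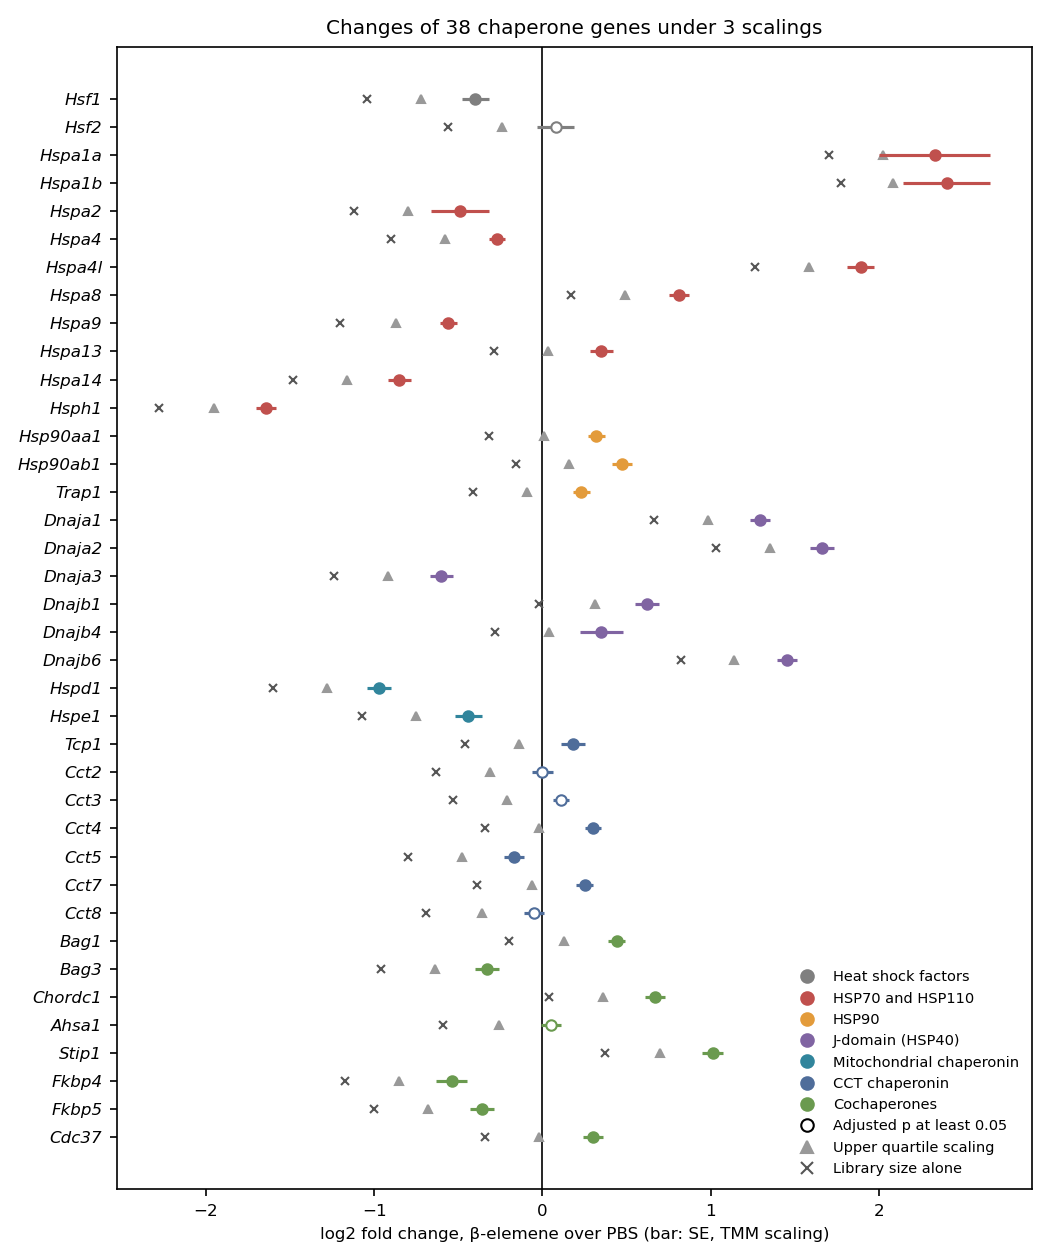
Log2 fold change of the 38 tested chaperone genes, β-elemene over PBS, with SE bars under TMM scaling, and the values under upper quartile scaling and library size alone. Open circles mark the 5 genes that did not pass, 20 genes keep the same call under these scalings and under median of ratios, and 15 turn direction with library size alone.

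The letters of a heat shock element were looked for in the RefSeq promoter windows of the chaperone genes (GRCm38.p6, 250 bases before to 50 after each annotated start), because it is the element through which heat shock factor 1 acts. The motif was 3 alternating units, GAA, TTC and GAA with NN between neighbours, read on both strands, and overlapping matches were capitalised as 1 run. Windows existed for 32 of the 39 genes, and 5 of those genes (15.6%) held the motif, against 0.662% of the 27025 genes with a window. These were Hspd1, Hspe1, Dnajb6, Hsph1 and Chordc1. Hsf1, Hspa8, Hspa9, Hspa13, Hsp90aa1, Hsp90ab1 and Cct4 had no window and were not searched. A match is a run of letters and not a measured site. The windows are printed 5′ to 3′ along each gene, with the motif in capitals.
Hspe1, chr1:55087898-55088197, plus strand: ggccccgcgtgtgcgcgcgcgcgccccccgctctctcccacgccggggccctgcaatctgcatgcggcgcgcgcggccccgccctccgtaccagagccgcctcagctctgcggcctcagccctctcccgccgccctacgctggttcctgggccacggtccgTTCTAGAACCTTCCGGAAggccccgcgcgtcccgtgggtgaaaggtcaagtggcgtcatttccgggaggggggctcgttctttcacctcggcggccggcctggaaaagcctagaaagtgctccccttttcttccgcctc
Dnajb6, chr5:29735648-29735947, plus strand: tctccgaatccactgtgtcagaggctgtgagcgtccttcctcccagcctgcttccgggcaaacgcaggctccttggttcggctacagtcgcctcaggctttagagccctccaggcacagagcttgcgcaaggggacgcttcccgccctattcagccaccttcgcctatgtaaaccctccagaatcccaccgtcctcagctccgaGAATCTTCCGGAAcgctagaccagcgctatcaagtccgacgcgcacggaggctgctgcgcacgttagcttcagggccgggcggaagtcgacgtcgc
Hsph1, chr5:149636266-149636565, minus strand: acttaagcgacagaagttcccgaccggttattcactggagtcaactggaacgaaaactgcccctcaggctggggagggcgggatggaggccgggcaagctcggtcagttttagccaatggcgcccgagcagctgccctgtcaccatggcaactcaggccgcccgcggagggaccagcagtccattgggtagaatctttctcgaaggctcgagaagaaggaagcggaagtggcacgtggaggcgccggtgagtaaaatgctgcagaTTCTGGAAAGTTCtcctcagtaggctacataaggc
Chordc1, chr9:18292017-18292316, plus strand: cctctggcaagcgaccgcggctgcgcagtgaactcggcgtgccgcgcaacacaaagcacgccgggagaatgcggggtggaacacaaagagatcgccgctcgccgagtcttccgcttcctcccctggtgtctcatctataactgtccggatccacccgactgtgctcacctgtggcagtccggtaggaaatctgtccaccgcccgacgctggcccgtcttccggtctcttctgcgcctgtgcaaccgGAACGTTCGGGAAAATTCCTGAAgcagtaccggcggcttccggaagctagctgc
The motif of Hspe1 consists of 2 overlapping matches and is the same DNA that 1 of the 2 windows of Hspd1 holds on the opposite strand, since the pair is transcribed head to head. In Hsph1 the motif lies past the annotated start. Of the 5 genes with the motif, Hspd1, Hspe1 and Hsph1 were lower with β-elemene and Dnajb6 was higher under all 4 scalings, and Chordc1 was higher except with library size alone. The strongly raised Hspa1a and Hspa1b held no match to this 3-unit form in their windows. The search allowed no mismatch, so it would miss an imperfect element, and no match does not mean that the element is absent. The core of interferon-responsive elements, GAAA, NN and GAAA on both strands, stood in none of the 32 genes with a window, against 3.99% of all genes, and CCAAT on both strands stood in 17 of the 32 (53.1%), against 41.1% of all genes.

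Of the 2 heat shock factors, 1 fell and 1 did not pass. Hsf1, the main activator of the heat shock response (chromosome 15, 76477422 to 76501913), had 20, 19.6 and 19.4 CPM in the β-elemene libraries, against 24.4, 28.3 and 25.3 CPM in the PBS libraries. It fell by 0.40 on the log2 scale (SE 0.08, edgeR adjusted p = 5.39e-04), and the groups did not overlap. Hsf2, a second factor that can form mixed trimers with it, had 15.1, 19.7 and 15.8 CPM with β-elemene, against 15.6, 16.8 and 15.5 CPM with PBS (log2 fold change 0.08, SE 0.11, edgeR adjusted p = 0.518). Here 1 β-elemene library, replicate 2, stood above the rest, and the value was -0.02 without it and -0.56 with library size alone. Among related genes, Hsf4, a factor best known from the lens, fell to 0.480 ± 0.0978 CPM with β-elemene, against 2.99 ± 0.282 CPM with PBS (log2 fold change -2.63), and Hsf3, noted after its values were seen, had 0 counts in all libraries. Hsf5, Hsf2bp and Hsbp1l1 did not pass the filter on low counts. Of the 6 tested genes in that list of other heat shock factors and stress co-regulators, 4 rose and 2 fell. Of all tested genes 36.6% were higher and 40.2% lower. Sqstm1, an autophagy cargo receptor, rose by 1.11 and Hdac6, a deacetylase that senses ubiquitinated aggregates, fell by 1.00 on the log2 scale. With library size alone 1 of the 6 rose and 5 fell, where 18.9% of all tested genes were higher and 69.8% lower.

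In the HSP70 and HSP110 families 5 genes rose and 5 fell, and the groups did not overlap for any of the 10. Of all tested genes 36.6% were higher and 40.2% lower, and groups did not overlap for 79.9%. Hspa1a and Hspa1b, neighbouring intronless genes for the stress-inducible HSP70 (chromosome 17, 34969190 to 34972156 and 34956436 to 34959238), were raised most, from a low base. Hspa1a had 81, 80 and 52 counts in the β-elemene libraries, against 24, 33 and 11 counts in the PBS libraries (log2 fold change 2.33, SE 0.33). Hspa1b had 103, 97 and 66 counts with β-elemene, against 22, 37 and 22 counts with PBS (log2 fold change 2.40, SE 0.26, edgeR adjusted p = 2.01e-06). In both, β-elemene replicate 3 was the lowest library of its group and still above every PBS library. The copies are so alike that 43.8% and 44.8% of the 125-base stretches of their annotated transcripts also occur in each other or in Hspa1l, so how reads were shared between them is uncertain, and 19% of the exon bases of Hspa1a lie opposite Gm20481. Their sum, 11.3, 11.5 and 7.23 CPM with β-elemene against 1.78, 2.72 and 1.29 CPM with PBS, does not depend on how reads were split between the pair. After TMM scaling the sum is 5.20 times as high with β-elemene. With library size alone the log2 fold changes were 1.70 for Hspa1a and 1.77 for Hspa1b.

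Hspa8, the constitutive cytosolic HSP70, rose as well. Its libraries stood at 1466, 1565 and 1444 CPM with β-elemene, against 836, 871 and 850 CPM with PBS (log2 fold change 0.81, SE 0.06, edgeR adjusted p = 5.02e-08). With library size alone the change was 0.17, still called. Annotated pseudogenes share 25.1% of the 125-base stretches of its transcripts, and 6.09% of its exon bases overlap small nucleolar RNA genes. Hspa1b stood at 0.00374 ± 0.000806 counts per Hspa8 count with β-elemene and 0.00125 ± 0.000366 with PBS (SD, n = 3). Hspa2, a relative best known from the testis, was low and fell, with 3.63 ± 0.549 CPM with β-elemene against 5.09 ± 0.379 CPM with PBS. That call (edgeR adjusted p = 0.0166) was lost without β-elemene replicate 2, without β-elemene replicate 3 or without PBS replicate 2 (adjusted p of 0.0534, 0.0753 and 0.0526).

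The 3 HSP110 genes, whose products exchange nucleotide on HSP70 and hold unfolded proteins, went apart. Hspa4l (chromosome 3, 40744495 to 40796103) had 71.2, 72.2 and 84.3 CPM with β-elemene, against 20.3, 21.5 and 19.5 CPM with PBS (log2 fold change 1.89, SE 0.08, edgeR adjusted p = 8.20e-11). Hsph1 (chromosome 5, 149614287 to 149636376), which carries a heat shock motif in the window printed above, had 23.5, 23.9 and 23.6 CPM with β-elemene, against 74.8, 74.8 and 71.8 CPM with PBS (log2 fold change -1.64, SE 0.06, edgeR adjusted p = 2.60e-11). Hspa4 had 200, 214 and 201 CPM with β-elemene, against 252, 247 and 242 CPM with PBS, and fell by 0.27 (SE 0.05). As levels per kilobase of exon, Hspa4l stood at 6.44 and Hsph1 at 3.26 CPM with β-elemene, against 1.73 and 10.2 CPM with PBS, so their order turned round, with Hspa4 above both in each group. Relative to Hspa4 within the same library, Hspa4l stood at 0.371 ± 0.0430 with β-elemene against 0.0828 ± 0.00362 with PBS, and Hsph1 at 0.116 ± 0.00337 with β-elemene against 0.299 ± 0.00338 with PBS (SD, n = 3).

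The other 3 HSP70 genes serve particular compartments. Hspa9, the HSP70 of the mitochondrial matrix, stood at 172 ± 3.42 CPM with β-elemene against 254 ± 3.89 CPM with PBS and fell by 0.56 (SE 0.05). Hspa14, whose human protein works on the ribosome, had 25.3, 24.3 and 23.0 CPM with β-elemene, against 43.0, 46.0 and 41.9 CPM with PBS (log2 fold change -0.85, SE 0.07, edgeR adjusted p = 1.16e-07). Its exons overlap Gm45902 on the same strand over 7.91% of their length. Hspa13, a truncated HSP70 of microsomes, stood at 43.0 ± 3.39 CPM with β-elemene against 33.8 ± 1.55 CPM with PBS, a rise of 0.35 that turned into a fall of 0.29 with library size alone.

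The 3 HSP90 genes rose by 0.23 to 0.47 under TMM scaling, where 36.6% of all tested genes were higher. But with library size alone all 3 were lower, where 69.8% of all tested genes were lower. Hsp90ab1, the constitutive cytosolic HSP90 that holds kinases and steroid receptors ready, had 1047, 1117 and 976 CPM with β-elemene, against 763, 748 and 750 CPM with PBS (log2 fold change 0.47, SE 0.06, but -0.16 with library size alone). Hsp90aa1, its inducible relative, had 305, 292 and 297 CPM with β-elemene, against 243, 235 and 237 CPM with PBS (0.32, SE 0.05, but -0.32 with library size alone), and 32.7% of the 125-base stretches of its transcripts recur in pseudogenes. Within a library the count of Hsp90aa1 per count of Hsp90ab1 was 0.291, 0.261 and 0.305 with β-elemene, against 0.319, 0.314 and 0.316 with PBS, lower in every β-elemene library. Trap1, the HSP90 of mitochondria, stood at 87.8 ± 1.25 CPM with β-elemene against 75.0 ± 1.99 CPM with PBS, a log2 fold change of 0.23 that was -0.41 with library size alone.

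The 6 listed J-domain genes, whose products deliver clients to HSP70 and start its ATP hydrolysis, had the highest family median, 0.96. Of these, 5 were higher and 1 lower, where 36.6% of all tested genes were higher and 40.2% lower. With library size alone 3 were higher and 1 lower, where the shares were 18.9% and 69.8%. The median of 30 other J-domain genes was 0.04. Dnaja2 (chromosome 8, 85537633 to 85555344) had 345, 305 and 359 CPM with β-elemene, against 110, 108 and 101 CPM with PBS (log2 fold change 1.66, SE 0.07, edgeR adjusted p = 7.53e-11). Dnajb6, a suppressor of protein aggregation whose window above holds a heat shock motif, had 206, 209 and 194 CPM with β-elemene, against 70.1, 77.5 and 74.9 CPM with PBS (1.45, SE 0.06). Dnaja1, like Dnaja2 a farnesylated partner of cytosolic HSP70, had 290, 277 and 300 CPM with β-elemene, against 119, 120 and 114 CPM with PBS (1.29, SE 0.06). After TMM scaling, every β-elemene library of these 3 genes stood at more than 2 times every PBS library. With library size alone the log2 fold changes were 1.03 for Dnaja2, 0.82 for Dnajb6 and 0.66 for Dnaja1. Antisense genes overlap 9.93% of the exon bases of Dnaja1, and pseudogenes or other genes share 8.02% of its 125-base stretches and 13.3% of those of Dnajb6.

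Dnajb1, the J-domain gene most closely tied to heat shock, had 42.5, 42.6 and 40.5 CPM with β-elemene, against 26.2, 27.8 and 27.7 CPM with PBS (0.62, SE 0.07, but -0.02 and not called with library size alone). Its ratio to Dnaja1 within a library was lower with β-elemene, at 0.147, 0.154 and 0.135 counts per Dnaja1 count with β-elemene, against 0.220, 0.232 and 0.242 with PBS. Dnajb4, a related gene, had 16, 22.1 and 15.2 CPM with β-elemene, against 14.4, 14.1 and 13.2 CPM with PBS (0.35, SE 0.13, edgeR adjusted p = 0.0249). That call was lost without β-elemene replicate 2 or PBS replicate 3 (adjusted p of 0.0964 and 0.0732) and with upper quartile scaling or library size alone, where it was 0.04 and -0.28. Dnaja3, the J-domain partner of Hspa9 in mitochondria, was the exception, with 32.1, 33.5 and 29.2 CPM with β-elemene, against 46.5, 47.6 and 49.6 CPM with PBS (-0.60, SE 0.07).

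Shares of a family within the chaperone counts do not depend on the scaling between libraries. The 6 J-domain genes took 14.1%, 12.9% and 14.3% of the counts of the 39 genes in the β-elemene libraries, against 7.45%, 7.70% and 7.42% in the PBS libraries. The mitochondrial chaperonin took 2.14%, 2.27% and 2.06% with β-elemene, against 5.27%, 4.93% and 5.21% with PBS, and the cytosolic chaperonin 19.1%, 19.7% and 20% with β-elemene, against 24.1%, 23.4% and 24.4% with PBS. Shares lay closer together for HSP70 genes, at 30.5% to 31.1% with β-elemene, against 29.4% to 30.3% with PBS. The same held for HSP90 genes, at 20.9% to 21.8% with β-elemene, against 20.6% to 20.9% with PBS, and for cochaperones, at 11.6% to 11.7% with β-elemene, against 11.9% to 12.1% with PBS. Make-up within the HSP70 share changed, since Hspa8 alone took 22.1% to 22.8% of the chaperone counts with β-elemene, against 16.1% to 17% with PBS. Of all counts in a library, the 39 genes held 0.519% to 0.559% in the β-elemene group, against 0.636% to 0.652% in the PBS group, which is a comparison by library size alone. After TMM scaling the direction was the opposite, with sums of 6667 ± 184 CPM with β-elemene and 5146 ± 29.5 CPM with PBS.

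**Figure D3:**
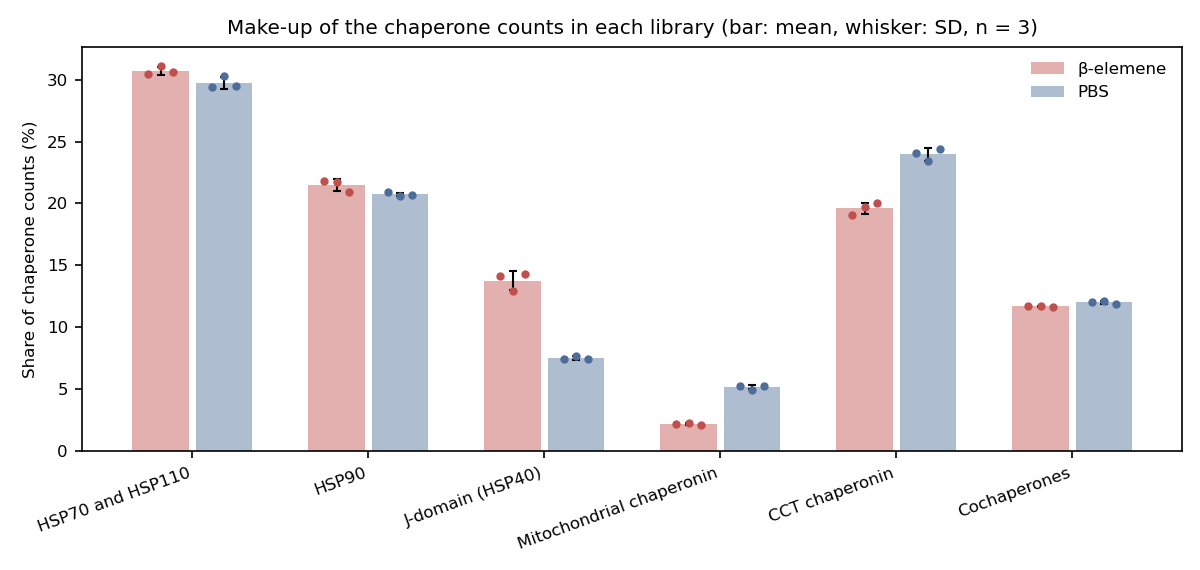
Share of the counts of the 39 chaperone genes taken by each family in each library, in percent, with bars at the mean, whiskers at 1 SD (n = 3) and a point per library. J-domain genes lie at 12.9% to 14.3% with β-elemene, against 7.42% to 7.70% with PBS, and the mitochondrial chaperonin at 2.06% to 2.27% with β-elemene, against 4.93% to 5.27% with PBS.

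The mitochondrial chaperonin, a barrel of Hspd1 subunits capped by Hspe1, fell in both its genes. Hspd1 (chromosome 1, 55077835 to 55088243) had 115, 125 and 107 CPM with β-elemene, against 234, 211 and 230 CPM with PBS (log2 fold change -0.97, SE 0.07, edgeR adjusted p = 1.69e-08). Hspe1, its head-to-head neighbour (55088132 to 55091307), had 26.4, 31.5 and 28.3 CPM with β-elemene, against 38.6, 41.1 and 36.8 CPM with PBS (-0.44, SE 0.08, edgeR adjusted p = 2.14e-04). Of the 2 annotated starts of Hspd1, 1 lies in the stretch of DNA printed above, and which start was used was not measured. Hspd1 counts per Hspe1 count were 4.35, 3.96 and 3.76 with β-elemene against 6.07, 5.14 and 6.25 with PBS. Their exons overlap on opposite strands over 4.24% of Hspd1 and 7.60% of Hspe1, and pseudogenes share 19.1% of the 125-base stretches of Hspd1.

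Counting all 5 genes whose products work in mitochondria, Hspa9, Dnaja3, Hspd1 and Hspe1 fell and Trap1 rose under TMM scaling, while all 5 were lower with library size alone. This grouping was made after the values were seen. Of the chaperone counts the 5 together took 6.52% to 6.57% with β-elemene, against 12.2% to 12.6% with PBS. Of 12 other genes of mitochondrial protein quality control, 4 rose, 5 fell and 3 did not pass, with 2 higher and 8 lower under library size alone. These counts lay near the shares over all tested genes, 36.6% higher and 40.2% lower (18.9% and 69.8% with library size alone). Atf5, a transcription factor of the mitochondrial stress response, and Clpp, the matrix protease, fell by 1.35 and 1.24, and Htra2, a protease of the intermembrane space, rose by 1.32. Grpel2, one of the nucleotide exchange factors of Hspa9, fell by 0.63 on the log2 scale.

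The cytosolic chaperonin CCT, a ring complex that folds actin and tubulin, changed little in either direction. Of its 7 listed genes 3 rose, 1 fell and 3 did not pass, all with log2 fold changes of -0.17 to 0.30. Of all tested genes 36.6% were higher and 40.2% lower. But with library size alone all 7 were lower, and with upper quartile scaling 0 were higher and 4 lower. The shares of all tested genes called lower under these scalings were 69.8% and 57%. Tcp1 had 194, 228 and 212 CPM with β-elemene, against 193, 179 and 188 CPM with PBS (0.18, SE 0.07, edgeR adjusted p = 0.0236, and 0.0872 without PBS replicate 2), and 14.2% of its exon bases lie opposite other genes. Cct4 and Cct7 rose by 0.30 and 0.25 under TMM scaling, but stood at -0.34 and -0.39 with library size alone. Cct5 was lower by TMM at 178 ± 10.6 CPM with β-elemene against 200 ± 1.39 CPM with PBS (edgeR adjusted p = 0.0157). That call was lost with median of ratios (adjusted p = 0.0502), with DESeq2 (0.0700) and without β-elemene replicate 1, β-elemene replicate 3 or PBS replicate 1 (0.0962, 0.0686 and 0.0556). Cct2, Cct3 and Cct8 did not pass, at 0.00, 0.11 and -0.05, although Cct3 passed with median of ratios (0.15, edgeR adjusted p = 0.0201) and was lower with library size alone (-0.53). The subunit gene Cct6a, which was not on the list of 39 and was picked out after its values were seen, fell by 0.25 on the log2 scale. Scaled by merged exon length, the 7 genes lay at 24.6 to 69.8 CPM per kilobase with β-elemene and 20.7 to 72.3 with PBS.

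Prefoldin hands clients to this ring, and phosducin-like proteins regulate it. Of 15 tested prefoldin and assembly genes 8 rose, 5 fell and 2 did not pass, with 2 higher and 9 lower under library size alone. The shares over all tested genes were 36.6% higher and 40.2% lower, and 18.9% and 69.8% with library size alone. Pdcl3, a phosducin-like regulator of CCT, rose by 0.94, Vbp1, a prefoldin subunit, by 0.86 and Txndc9 by 0.77, the last of which was not called with library size alone. Pfdn6, another prefoldin subunit, fell by 0.43.

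Among the 8 cochaperones 4 rose, 3 fell and 1 did not pass, where 36.6% of all tested genes were higher and 40.2% lower. With library size alone 1 was higher and 6 were lower, where the shares were 18.9% and 69.8%. Stip1, the adaptor that holds HSP70 and HSP90 together, had 177, 189 and 170 CPM with β-elemene, against 90.7, 87.2 and 88.3 CPM with PBS (log2 fold change 1.01, SE 0.06, edgeR adjusted p = 1.71e-09), and was the cochaperone called higher under all 4 scalings. Chordc1, an HSP90 cochaperone with 3 overlapping heat shock motif matches in its window, had 66.8, 71.8 and 73.3 CPM with β-elemene, against 44.3, 45.4 and 43.2 CPM with PBS (0.67, SE 0.06, but 0.04 and not called with library size alone). Ahsa1, which stimulates the ATPase of HSP90, did not pass, at 97.3 ± 5.46 CPM with β-elemene against 94.0 ± 3.51 CPM with PBS. Cdc37, which brings kinases to HSP90, had 199, 211 and 184 CPM with β-elemene, against 161, 161 and 161 CPM with PBS (0.30, SE 0.06, but -0.34 with library size alone).

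Bag1, a nucleotide exchange factor of HSP70, had 136, 129 and 131 CPM with β-elemene, against 96.9, 97.3 and 97.0 CPM with PBS (0.44, SE 0.05, but -0.20 with library size alone). Bag3, which is heat-inducible and links HSP70 to selective autophagy, had 40.7, 43.9 and 39.5 CPM with β-elemene, against 50.9, 54.7 and 50.0 CPM with PBS (-0.33, SE 0.07). Counts of Bag3 per count of Bag1 were thus 0.299, 0.341 and 0.303 with β-elemene, against 0.525, 0.562 and 0.515 with PBS. Fkbp4 and Fkbp5, HSP90-bound immunophilins that favour and restrain steroid receptor activity, both fell. Fkbp4 had 29.5, 38.4 and 30.2 CPM with β-elemene, against 46.7, 45.7 and 50.1 CPM with PBS (-0.54, SE 0.09). Fkbp5 had 26.3, 27.2 and 25.9 CPM with β-elemene, against 35.2, 35.5 and 31.3 CPM with PBS (-0.36, SE 0.07). Their ratio overlapped between groups, at 0.890, 0.709 and 0.856 with β-elemene and 0.754, 0.776 and 0.624 with PBS.

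Fkbp5 is a classic glucocorticoid-induced gene, and it was set beside a list of other such genes and their receptor, Nr3c1. Of 9 tested, 3 rose, 5 fell and 1 did not pass under TMM scaling and with library size alone alike. Those that rose under TMM scaling were the receptor, Cebpd and Dusp1, the last named after its values were seen. Of all tested genes 36.6% were higher and 40.2% lower, and 18.9% and 69.8% with library size alone. Tsc22d3, which encodes GILZ, and Klf9 fell by 4.19 and 3.17, and Cebpd rose by 3.27. Nr3c1, which encodes the receptor, an HSP90 client and not one of the induced targets, stood at 265 ± 7.24 CPM with β-elemene against 62.1 ± 4.41 CPM with PBS (log2 fold change 2.09, SE 0.06), and was picked out after its values were seen.

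Count ratios within a library carry no scaling between libraries, and 8 pairs were compared this way. Groups did not overlap for 7 of the 8, each with an exact two-sided permutation p of 0.10, which is the smallest that 3 against 3 libraries allow (0.114 after adjustment over the 8 pairs), and p was 0.30 for Fkbp5 over Fkbp4. The log2 ratio differed by 2.16 for Hspa4l over Hspa4, by 1.60 for Hspa1b over Hspa8, by -1.37 for Hsph1 over Hspa4, by -0.77 for Bag3 over Bag1, by -0.67 for Dnajb1 over Dnaja1, by -0.53 for Hspd1 over Hspe1 and by -0.15 for Hsp90aa1 over Hsp90ab1, β-elemene minus PBS.

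**Figure D4:**
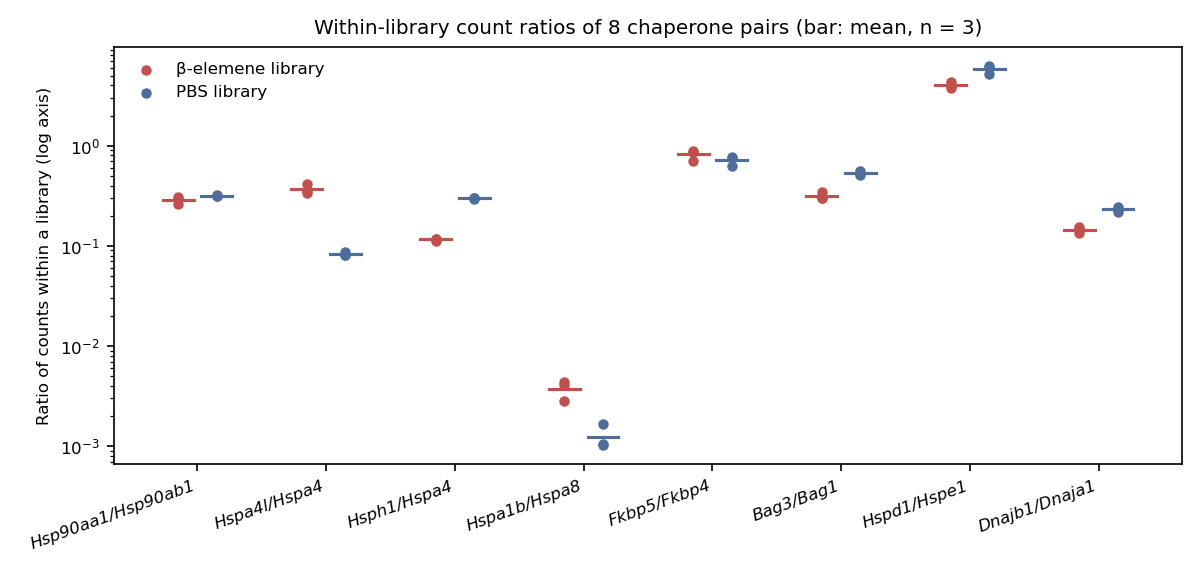
Count of the first gene divided by the count of the second within each library, on a log axis, for 8 chaperone pairs, with a bar at the mean of 3 libraries. The groups are apart in 7 pairs and overlap for Fkbp5 over Fkbp4, where ratios span 0.709 to 0.890 with β-elemene, against 0.624 to 0.776 with PBS.

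Small heat shock proteins, which hold unfolded proteins without ATP, were scarce. Hspb1, the gene for HSP25, had 5, 1 and 0 counts in the β-elemene libraries, against 15, 9 and 9 counts in the PBS libraries, and was not tested. A pseudogene shares 41.6% of the 125-base stretches of its transcript. With no filter on low counts its log2 fold change was -1.74 (edgeR adjusted p = 0.0497). Of 8 other small heat shock genes 3 were tested, of which Cryab rose by 0.61 to 4.96 ± 0.455 CPM with β-elemene against 3.25 ± 0.462 CPM with PBS, a call lost with upper quartile scaling and with library size alone, and Hspb6 fell by 0.93.

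Other partners of HSP70 and HSP90 moved in both directions, where 36.6% of all tested genes were higher and 40.2% lower (18.9% and 69.8% with library size alone). Of 10 tested HSP70 partners 2 rose, 6 fell and 2 did not pass, with a median log2 fold change of -0.25, and with library size alone 0 rose and 10 fell. Bag4 and Bag5, further BAG family genes, fell by 1.28 and 0.63, and Bag6 rose by 0.28 but fell by 0.36 with library size alone. Of 13 HSP90 partners 4 rose, 7 fell and 2 did not pass, against 0 higher and 10 lower with library size alone. Nudcd2, Ppid, a peptidyl-prolyl isomerase of steroid receptor complexes, and Cdc37l1, a relative of Cdc37, fell by 1.24, 1.14 and 0.89. Tomm70a, the import receptor that docks HSP70 and HSP90 at mitochondria, rose by 0.62 and was not called with library size alone.

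The background for both lists below was 36.6% of all tested genes higher and 40.2% lower (18.9% and 69.8% with library size alone). Among 30 J-domain genes beyond the 6 listed, 10 rose, 9 fell and 11 did not pass, with a median of 0.04. With library size alone 2 rose and 24 fell. Dnajc28 fell to 0.504 ± 0.282 CPM with β-elemene, against 3.70 ± 0.538 CPM with PBS. Hscb, which serves iron-sulfur cluster assembly, fell by 1.84, and Dnajc1 rose by 0.89. In the endoplasmic reticulum, 6 of 14 chaperone genes rose, 4 fell and 4 did not pass, with 1 higher and 13 lower under library size alone. Hspa5, the HSP70 of that compartment, rose to 1141 ± 28.0 CPM with β-elemene, against 441 ± 6.45 CPM with PBS, and was called higher under all 4 scalings, while Pdia4 and Dnajb9 fell by 2.01 and 0.53. The HSP90 of that compartment, Hsp90b1, stood at 559 ± 21.8 CPM with β-elemene against 550 ± 7.05 CPM with PBS and did not pass, a gene noted after its values were seen.

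Levels can be compared only roughly between genes per kilobase of merged exon length, which joins the exons of all annotated transcripts of a gene. Which transcripts were present was not measured. Dnaja1 and Dnaja2, at 289 and 336 CPM with β-elemene, were thus divided by 8629 and 2975 bases, so the order below depends on the annotation. Hsp90ab1 and Hspa8 stood highest, at 349 and 347 CPM per kilobase with β-elemene against 251 and 198 with PBS. Dnaja2 was next with β-elemene, at 113 CPM per kilobase, where it stood at 35.6 with PBS, while Hspd1, at 43.7 with β-elemene, was next with PBS at 85.3. Among the tested genes the lowest were Hspa2 and Hspa1a with β-elemene, at 1.37 and 1.5 CPM per kilobase, and Hspa1a and Hspa1b with PBS, at 0.297 and 0.374. Between replicates, β-elemene replicate 2 was the highest library of its group for 23 of the 39 genes, and no PBS replicate was highest for more than 16.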

How the data were processed

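For 6 libraries a stranded mRNA kit and paired-end reads were used, per the labels' protocols, and the tool HISAT2 2.2.1.0 and builds GRCm38.p6 and mm10 are listed per the submitters' processing notes. Raw counts per gene were deposited by the authors. The counting tool and strand setting were not given in the sources used here. After filterByExpr (count of at least 10, total of at least 15), genes were scaled with TMM and tested with edgeR 4.0.16 in R 4.3.3 (quasi-likelihood, robust, group as the only term) over 11459 genes, with Benjamini-Hochberg adjustment at 0.05, and the pipeline was tested on simulated data. Each SE came from the F statistic and its fold change.

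Members and lists were chosen with earlier results of these data known. Values per library are given for members that pass and change at least 1.5-fold, the most abundant member of each class and members of 8 fixed ratio pairs, and from each partner list for up to 3 passing genes of at least 1 CPM, plus 1 of the opposite sign. A gene that this rule names is not reported here. Ratios used a pseudocount of 0.5 counts. Exon lengths, overlaps and shared 125-base stretches came from GENCODE vM21 (GRCm38), and promoters from RefSeq (GRCm38.p6). Within groups, replicate pairs differed by more than sampling noise (chi-square per degree of freedom 3.70 to 13.2). The alternatives were 3 other scalings, 2 filters, DESeq2 1.42.0, limma-voom (limma 3.58.1), a replicate block and leaving out each library. Limits from counts cover counting error only.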

Additional observations from a re-analysis of the deposited data

How the results depend on the processing

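Of the 39 genes, the 38 tested kept direction and call with limma-voom, with a minimum of 1 CPM in 3 libraries and with the replicate block. The count of chaperone genes higher with β-elemene was 12 with upper quartile scaling and 8 with library size alone, and the count lower was 27 with library size alone. The directions that turned with upper quartile scaling were those of Hsf2 (-0.24), Trap1 (-0.09), Tcp1 (-0.14), Cct2 (-0.31), Cct3 (-0.21), Cct4 (-0.02), Cct7 (-0.06), Ahsa1 (-0.26) and Cdc37 (-0.02). With library size alone they were those of Hsf2 (-0.56), Hspa13 (-0.29), Hsp90aa1 (-0.32), Hsp90ab1 (-0.16), Trap1 (-0.41), Dnajb1 (-0.02), Dnajb4 (-0.28), Tcp1 (-0.46), Cct2 (-0.63), Cct3 (-0.53), Cct4 (-0.34), Cct7 (-0.39), Bag1 (-0.20), Ahsa1 (-0.59) and Cdc37 (-0.34). These scalings shift all genes together by their construction. With no filter on low counts Cct2 stood at -0.01. With each library left out in turn, 3 genes that did not pass changed sign, Hsf2 ranging from -0.02 to 0.17, Cct2 from -0.03 to 0.05 and Cct8 from -0.07 to 0.01. Over these, 19 to 21 chaperone genes were higher and 11 to 13 lower, and 8368 to 8773 genes changed in the whole table.

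The replicate block left 20 higher and 13 lower, and 8793 in place of 8791 genes changed in the whole table. Deviations of same-numbered libraries had r of -0.0328, 0.0571 and 0.0151, against -0.0554 to 0.0446 for differently numbered libraries. With 3 libraries per group, this cannot tell whether the numbers pair the samples. Depth limits Hspb1 and the pair Hspa1a and Hspa1b, whose counts are low.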
